A study of Mus musculus with 66 samples.

Results

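The 9 genes described here write, copy, remove or guard DNA methylation: Dnmt1, Dnmt3a, Dnmt3b, Dnmt3l, Uhrf1, Tet1, Tet2, Tet3 and Dppa3, whose protein is also called Stella. They were picked by name for what their products do, and each of the 9 had its row among the 24062 genes of a poly(A) RNA-seq table of mouse female germ cells. RNA levels are given over all 24 groups and 66 libraries as reads per 1000000 assigned reads (RPM). DNA methylation itself was not measured here.

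The D21 oocytes were grown from embryonic stem cells (ESCs) that carried Foxo3dNES Tg, labelled as a transgene, or from WT ESCs. They were cultured for 21 days in hypoxia, with 5% O2, or in normoxia, with air and 5% CO2. WT hypoxia, WT normoxia, Foxo3dNES hypoxia and Foxo3dNES normoxia had 2 libraries each. A further 2 Foxo3dNES and 2 WT libraries of D21 carry no oxygen label. The promoter that drives the transgene is not given in the sources used here. The culture course ran over days 5, 7, 9, 10 and 11, here D5 to D11, and on over days 13, 15, 17 and 20, here D13 to D20, with 3 libraries a day. All cultured cells were of the background C57BL/6 X 129/SvJ and came from reconstituted ovaries, each an aggregate of 5000 Blimp1-mVenus germ cell-like cells and 75000 frozen-thawed somatic cells of E12.5 gonads. Rock inhibitor was added at the start of these cultures. The ovarian cells were taken at E14.5, E16.5 and E18.5 (embryonic days) and at P1 and P3 (postnatal days), and as large and small oocytes on P4 and P6, again with 3 libraries each. They were C57BL/6 x B6D2F1 and carried the stella-ECFP reporter, which is named after Dppa3. Whether its transcripts add reads to Dppa3 is not given in the sources used here. Up to E18.5, and in culture up to D11, the labels speak of germ cells, and afterwards of oocytes.

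In mammals, DNMT1 copies methylation onto newly made DNA at sites that UHRF1 finds, and DNMT3A and DNMT3B set methylation on sites that lack it. DNMT3L has no catalytic activity of its own and works as a partner of DNMT3A, and mouse oocytes gain their methylation as they grow after birth. TET1, TET2 and TET3 oxidise methylated cytosine as a step towards its removal. Stella keeps UHRF1 out of the nucleus of mouse oocytes and, after fertilisation, protects the maternal genome from TET3.

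Mouse Dnmt1 and Dnmt3l each have several start sites, some of which are known for use in germ cells, so the sequences around them are shown for the 2 genes with the largest log2 change between large and small oocytes. In the RefSeq promoter table for GRCm38.p6, 8 of the 9 genes had an entry, with 15 windows of 300 bases in all. Each window is printed 5′ to 3′ on the gene's own strand, from 250 bases before the start to 50 after it. Capitals mark every CpG and, in Dnmt1 alone, the letters TGATTG on either strand, a mouse binding motif of the oocyte homeobox factor LHX8.
Dnmt1 upstream start, chr9:20959839-20960138, minus strand: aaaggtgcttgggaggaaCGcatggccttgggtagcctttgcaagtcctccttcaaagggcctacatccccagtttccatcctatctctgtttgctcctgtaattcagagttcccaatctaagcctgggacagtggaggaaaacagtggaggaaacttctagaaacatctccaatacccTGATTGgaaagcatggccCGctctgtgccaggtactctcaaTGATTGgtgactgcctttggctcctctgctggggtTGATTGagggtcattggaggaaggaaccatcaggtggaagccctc
Dnmt1 middle start, chr9:20952930-20953229, minus strand: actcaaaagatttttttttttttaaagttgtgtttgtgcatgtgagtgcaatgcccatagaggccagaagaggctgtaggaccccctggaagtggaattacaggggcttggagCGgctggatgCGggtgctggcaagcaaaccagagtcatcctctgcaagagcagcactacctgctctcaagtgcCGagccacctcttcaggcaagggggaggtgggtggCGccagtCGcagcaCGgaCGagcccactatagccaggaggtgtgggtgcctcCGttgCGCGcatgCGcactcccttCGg
Dnmt1 downstream start, chr9:20952574-20952873, minus strand: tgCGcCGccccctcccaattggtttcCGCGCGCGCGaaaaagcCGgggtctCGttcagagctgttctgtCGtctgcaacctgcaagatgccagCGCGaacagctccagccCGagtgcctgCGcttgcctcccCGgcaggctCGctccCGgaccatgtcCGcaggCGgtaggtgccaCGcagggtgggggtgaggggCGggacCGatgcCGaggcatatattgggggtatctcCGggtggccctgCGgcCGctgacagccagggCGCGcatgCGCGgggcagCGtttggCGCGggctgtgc
Dnmt3l first start, chr10:78042037-78042336, plus strand: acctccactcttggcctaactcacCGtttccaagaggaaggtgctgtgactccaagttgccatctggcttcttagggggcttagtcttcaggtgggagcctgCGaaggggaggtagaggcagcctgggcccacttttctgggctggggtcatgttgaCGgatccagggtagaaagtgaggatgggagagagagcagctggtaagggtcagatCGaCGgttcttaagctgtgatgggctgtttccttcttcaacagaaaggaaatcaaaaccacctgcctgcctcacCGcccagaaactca
Dnmt3l second start, chr10:78049592-78049891, plus strand: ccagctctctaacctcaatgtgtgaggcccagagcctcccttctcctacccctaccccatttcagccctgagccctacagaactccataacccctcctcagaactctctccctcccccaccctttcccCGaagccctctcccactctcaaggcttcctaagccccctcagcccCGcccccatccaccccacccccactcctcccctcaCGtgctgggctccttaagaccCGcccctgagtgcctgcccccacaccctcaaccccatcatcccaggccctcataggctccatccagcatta

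The upstream Dnmt1 window held 2 CpGs and 3 copies of TGATTG, whereas the downstream window held 33 CpGs and none. Over the 32851 windows of the table the median was 7 CpGs. TGATTG stood at least once in 14.0% of them and at least 3 times in 0.292%. Among the members it also stood once in each Uhrf1 window, and outside Dnmt1 and Uhrf1 in none. The first and second Dnmt3l windows held 6 and 4 CpGs, and the third, not printed, held 3. The other members had more: 57 in Tet2, 47 in the richest Dnmt3a window, 33 in the richer Uhrf1 window, 30 in Dnmt3b, 22 in Tet3 and 17 in Tet1. The letters CACGTG, an E-box, were found in the second Dnmt3l window and in the third Dnmt3a window, and in 7.15% of all windows. These matches describe letters only. The upstream and middle Dnmt1 starts lie 6.909 kb apart, and the table counts reads per gene, so that the start in use could not be read from it.

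By GENCODE vM21 on GRCm38, Dnmt1 lies on chr9:20907209-20959888, Uhrf1 on chr17:56303321-56323486 and Dppa3 on chr6:122626410-122630272. Dnmt3a lies on chr12:3806007-3914443, Dnmt3b on chr2:153649450-153687730 and Dnmt3l on chr10:78041947-78063622. Tet1 lies on chr10:62804570-62908996, Tet2 on chr3:133463679-133545139 and Tet3 on chr6:83362373-83459084. RPM counts all exonic reads of a gene and is not divided by length. An annotated pseudogene copies Dppa3, and how reads shared between them were counted is not given in the sources used here. Dnmt3l overlaps Aire on the opposite strand, which reached 12.0 RPM, and the strand setting of the counting is not given either.

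Depth, in units of 1000000 assigned reads, was 13.9 to 23.2 in the ovarian libraries, 14.7 to 22.8 in the culture course and 4.84 to 21.3 at D21, where the 4 libraries with no oxygen label had the least, 4.84 to 8.72. A floor of 3 reads thus equals 0.129 to 0.619 RPM. It covers counting error only. The 7 oocyte markers summed to 1581 to 14095 RPM in the ovary and to 1358 to 17272 RPM in the culture course. At D21 their sum was 7909 to 18777 RPM. Single markers changed widely beneath these sums. At E18.5, 5 of the 7 were higher than at E14.5 and 2 lower, with a median log2 change of 4.32. At D11, 5 of the 7 were higher than at D5 and 1 lower, with a median of 5.7. Markers of other cells varied in the culture: granulosa markers summed to 308 to 691 RPM and stroma markers to 187 to 1833 RPM over D9, D10 and D11, and to 26.3 to 41.4 RPM and 3.48 to 27.2 RPM at D13. Granulosa markers reached 473 and 720 RPM in the D21 Foxo3dNES libraries with no oxygen label, and endothelium markers 77.7 to 101 RPM at D5. In pooled cells, fewer cells of a type and less RNA per cell cannot be told apart. Foxo3 itself was at 267 to 367 RPM in the Foxo3dNES libraries and at 44.8 to 128 RPM in the WT libraries of D21.

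**Figure D1:**
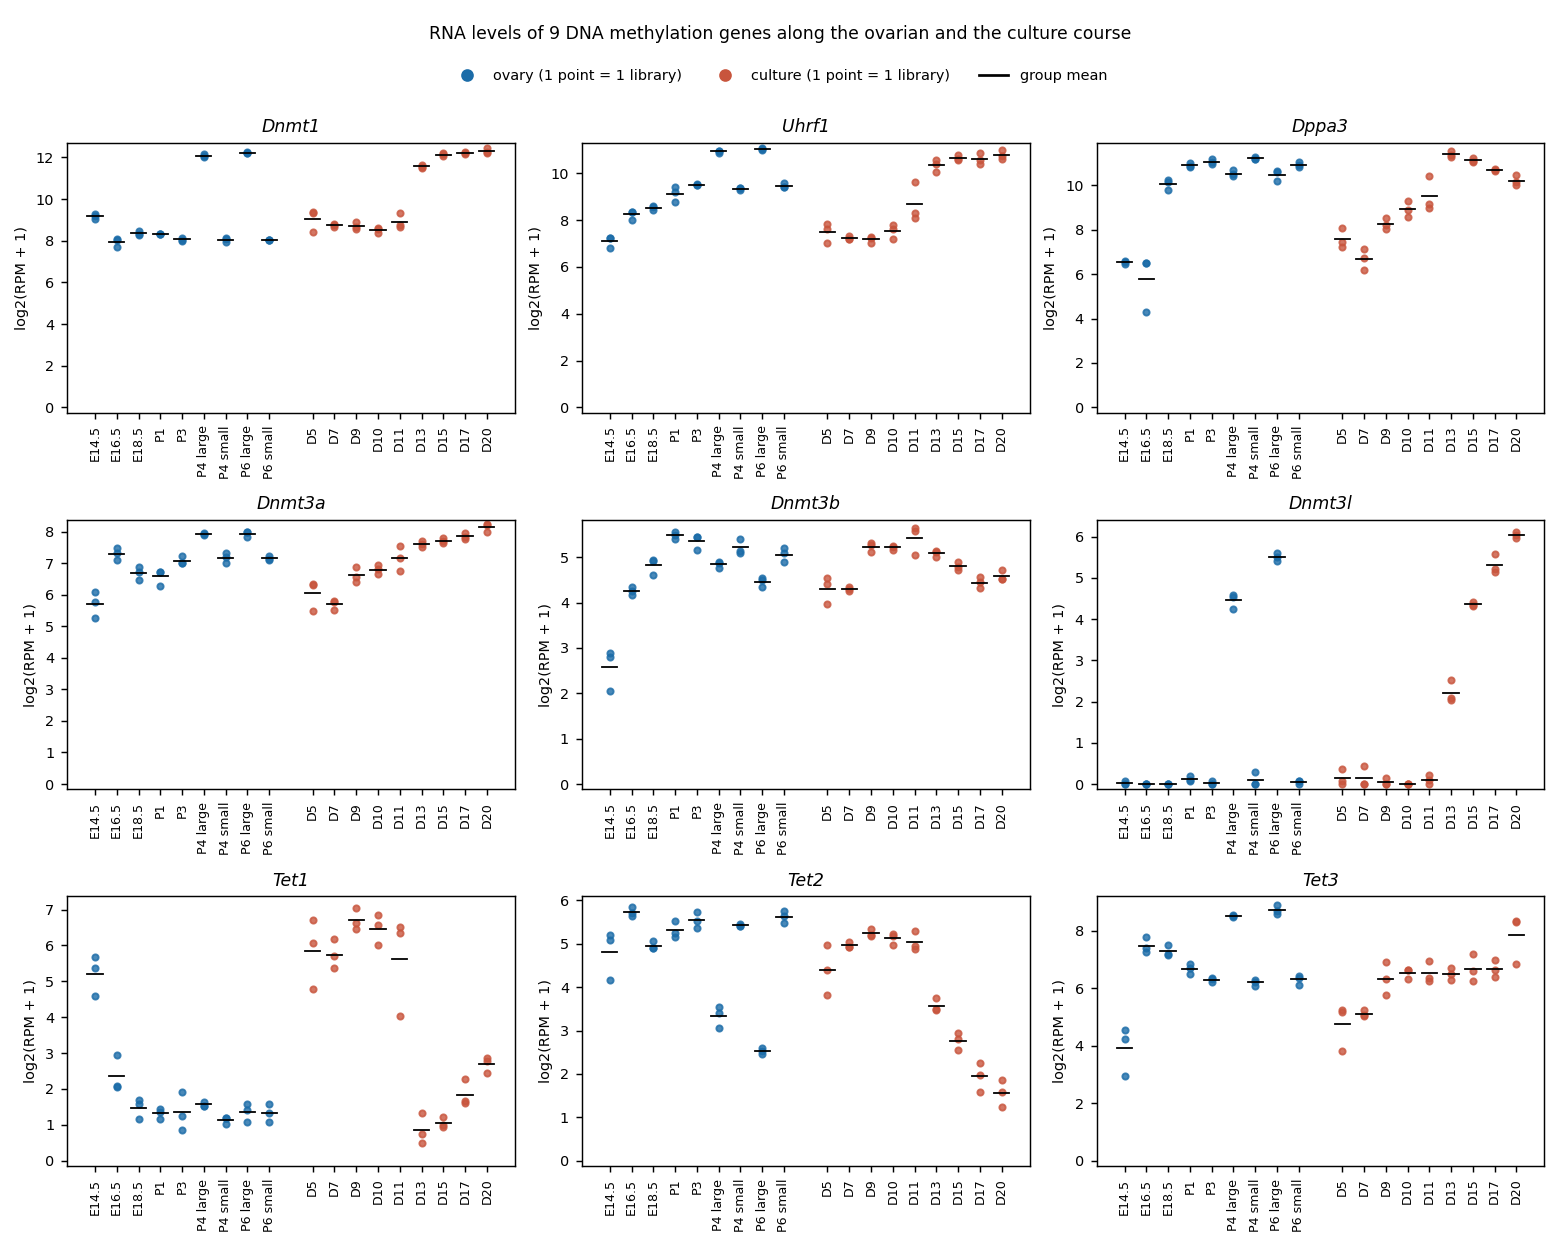
RNA level of each gene as log2(RPM + 1) in every library of the ovarian groups (blue) and the culture course (red), with the group mean as a bar. Dnmt1, Uhrf1 and Dnmt3l step up in large oocytes and at D13, Tet2 steps down in the same groups, and Tet1 is high at E14.5 and from D5 to D11.

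Large oocytes of P6 differed from small ones of the same age in 7 of the 9 genes. The copying enzyme Dnmt1, its guide Uhrf1, the de novo enzyme Dnmt3a, its partner Dnmt3l and Tet3 were higher, and Tet2 and Dnmt3b were lower. At P4 the same 7 genes were called in the same directions. Such calls were common, since 73.4% of the 15401 genes tested passed at P6 and 69.2% at P4. All calls split into 3396 higher and 7904 lower at P6, or 5576 and 5275 with libraries rescaled by median-of-ratios size factors, and into 3156 and 7507 at P4, or 5113 and 4780. A call means an adjusted p under 0.05 in limma, with Benjamini-Hochberg adjustment over all genes tested. Changes are on the log2(RPM + 1) scale, which understates those of low genes. The labels call the replicates biological.

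Dnmt1 had 4711, 4724.5 and 4828 RPM in large P6 oocytes, against 258, 259 and 263 RPM in small ones. The groups stood far apart, by a log2 change of 4.19 (SE 0.08, adjusted p = 2.5e-22). At P4, Dnmt1 had 4222.5, 4603 and 4262 RPM in large oocytes and 271, 244 and 277 RPM in small ones, a log2 change of 4.04. Every large library thus lay above every small one at both ages. Uhrf1 had 2158, 2045 and 2123 RPM in large P6 oocytes, against 779, 674 and 677 RPM in small ones (log2 change 1.57, SE 0.12, adjusted p = 1.9e-11), and at P4 the log2 change was 1.59.

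Dppa3, the guard of the pair, did not pass the threshold at either age. It had 1563, 1604 and 1154 RPM in large P6 oocytes, against 1822, 1936 and 2093 RPM in small ones. The groups did not overlap, yet the log2 change of -0.45 (SE 0.32) missed the threshold with an adjusted p of 0.21, and it was 0.16 once libraries were rescaled. It passed when the large and small P6 groups alone were fitted (-0.45, adjusted p = 0.0041). At P4 the means were 1473 ± 139 RPM in large oocytes and 2359 ± 116 RPM in small ones (SD, n = 3 each, adjusted p = 0.059 in limma). The P4 change of -0.68 passed in the 2 groups alone (adjusted p = 4.7e-05) and with a pseudocount of 5 RPM (adjusted p = 0.045).

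The de novo enzymes went separate ways. Dnmt3a had 251, 227 and 253 RPM in large P6 oocytes, against 136, 138 and 148 RPM in small ones (log2 change 0.78, SE 0.15, adjusted p = 4e-05). Dnmt3b had 22.4, 19.3 and 21.6 RPM in large P6 oocytes, against 28.5, 33.0 and 35.7 RPM in small ones, a log2 change of -0.59 (SE 0.16, adjusted p = 0.0016). That lower level of Dnmt3b rests on the scaling. All genes tested had a median log2 change of -0.41 at P6 and -0.34 at P4, and with libraries rescaled Dnmt3b changed by -0.00 at P6 (adjusted p = 1.0) and by 0.09 at P4. At P4 the Dnmt3b call was also lost without small library 1 or 2 or any 1 of the large libraries (adjusted p = 0.052 to 0.18). Rescaling raised the other changes at P6 too, to 1.40 for Dnmt3a, 4.80 for Dnmt1, 2.19 for Uhrf1 and 3.02 for Tet3. Per kilobase of exon, Dnmt3a made up 78.0% of the Dnmt3a and Dnmt3b RNA in large P6 oocytes and 57.25% in small ones, a ratio within each library that no scaling moves.

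Dnmt3l was the gene nearest to off in small oocytes. It had 41.4, 44.2 and 47.8 RPM in large P6 oocytes, against 2 reads over the 3 small libraries together. The ratio of rates was 1112, with a 95% counting interval of 307.5 to 9187, and the log2 change was 5.45 (SE 0.13, adjusted p = 3.6e-21). At P4, large oocytes had 18.01, 22.9 and 22.1 RPM and the small ones 4 reads in all, a ratio of 296.8 with an interval of 115.6 to 1091. The highest small library stood at 0.234 RPM and the lowest large one at 18.01 RPM.

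Among the erasers, Tet3 and Tet2 moved against each other. Tet3 had 474, 381 and 408 RPM in large P6 oocytes, against 68.8, 80.3 and 85.6 RPM in small ones (log2 change 2.41, SE 0.23, adjusted p = 6.1e-10). Tet2 had 5.08, 4.79 and 4.54 RPM in large P6 oocytes, against 43.3, 53.4 and 48.9 RPM in small ones (log2 change -3.09, SE 0.18, adjusted p = 6.1e-14). Tet1 was low in both, at 1.10 to 1.97 RPM in large and 1.11 to 1.97 RPM in small P6 oocytes. At P4, Tet1 missed the threshold at a log2 change of 0.44 (adjusted p = 0.16) and passed it at 0.74 when rescaled (adjusted p = 0.015). Per kilobase of exon, Tet3 made up 98.5% of the summed TET RNA in large P6 oocytes and 61.1% in small ones. At P4 it was 97.0% in large and 62.8% in small oocytes.

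**Figure D2:**
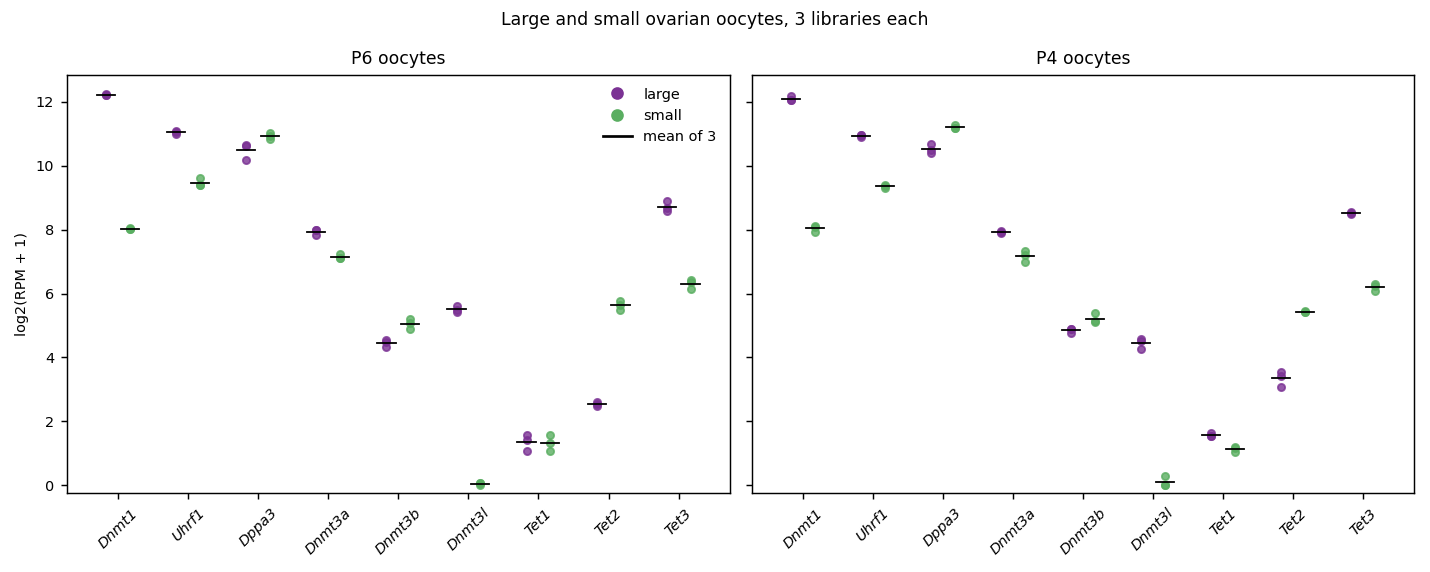
log2(RPM + 1) of the 9 genes in large (purple) and small (green) oocytes of P6 and P4, 1 point a library, with the mean of 3 as a bar. Large libraries lie above small ones for Dnmt1, Uhrf1, Dnmt3a, Dnmt3l and Tet3 and below them for Tet2, Dnmt3b and Dppa3 at both ages, and Tet1 overlaps at P6.

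Between the ages, large oocytes of P6 and P4 differed in 2 of the 9 genes, where 18.6% of all genes were called, 708 higher and 2155 lower, or 1623 and 1113 when rescaled. Dnmt3l was higher at P6 by a log2 change of 1.05 (SE 0.13, adjusted p = 7.2e-06), and Tet2 was lower by -0.81 (SE 0.18, adjusted p = 0.0027). The Dnmt3l call was lost with a pseudocount of 0.1 RPM (adjusted p = 0.062). Dnmt1 averaged 4754 ± 64.0 RPM in large P6 oocytes and 4363 ± 209 RPM in large P4 oocytes (SD, n = 3 each), and its log2 change of 0.13 did not pass (adjusted p = 0.35). The large-small difference itself differed between P6 and P4 in the same 2 genes, where 8.52% of all genes did: it was larger at P6 by 1.10 in Dnmt3l (adjusted p = 0.00098) and more negative by -1.0 in Tet2 (adjusted p = 0.016). The Dnmt3l call of that difference was lost in edgeR (adjusted p = 0.39) and the Tet2 call without the first large P4 library (adjusted p = 0.063).

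Most of the tested helpers, readers and repair genes of the field were lower in large P6 oocytes. Lower calls over all genes numbered 7904 of 15401, or 5275 when rescaled. Of 7 helpers of methylation maintenance, 1 was higher and 4 were lower, with a median log2 change of -0.92 beside -0.41 for all genes. Among them were Uhrf2, the paralog of Uhrf1, at -1.12, the DNA ligase Lig1 at -1.02, and Hells, a remodeller needed for DNA methylation, at -0.95. Rescaled, 2 were higher and 4 lower. Of 9 readers of methyl-CpG, none was higher and 8 were lower, with a median of -1.14. Zbtb38 was at -2.97 and Mbd2 at -1.48, and rescaled 1 was higher and 6 were lower. Of 16 tested genes for base excision repair or partners of TET, 2 were higher and 13 lower, with a median of -1.08, or 3 and 9 when rescaled. Tdg, the glycosylase that removes oxidised methylcytosine, was at -2.88 and Neil2 at -2.56, whereas the glycosylase Neil3 was at 2.63.

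Imprint and maternal methylation factors were mixed, with 4 of 11 higher and 6 lower at P6, or 6 higher and 3 lower when rescaled. Zfp57, a zinc finger that holds methylation at imprints, averaged 1511 RPM in large and 439 RPM in small P6 oocytes, a log2 change of 1.79. The histone methyltransferases Ehmt2 and Nsd1 were at -1.37 and -1.11. Of 10 tested genes of the methyl donor cycle, 1 was higher and 8 lower, or 2 and 5 when rescaled, with Shmt1 at -1.74, Gnmt at -1.38 and Mat2b, a subunit of the enzyme that makes the donor, at 1.14. Of 3 tested neighbours of Dppa3 on its chromosome, 0 were higher and 2 lower, Gdf3 at -1.10 and the pluripotency factor Nanog at -0.43. Of 10 S phase genes, 5 were higher and 4 lower, with a median of 0.05, and rescaled 6 were higher and none lower. Granulosa markers summed to 78.7 to 84.8 RPM in large and 11.1 to 24.2 RPM in small P6 oocytes, with 3 of 9 tested higher and 3 lower. Stroma markers were lower for 6 of 6 tested, with sums of 1.39 to 1.78 RPM in large and 6.63 to 29.0 RPM in small P6 oocytes. The part of both in these results was not tested.

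In the fetal ovary, 7 of the 9 genes differed between E18.5 and E14.5, where 70.0% of all genes did, with a median log2 change of 0.14. The split of all calls was 6157 higher and 4625 lower, or 5182 and 5467 when rescaled. Dppa3, Tet3, Dnmt3b, Uhrf1 and Dnmt3a were higher at E18.5, and Tet1 and Dnmt1 were lower. Dnmt3l stayed unread, with 1 read in all at E14.5 and 0 at E16.5 and E18.5.

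Tet1 was at 23.3, 40.5 and 50.3 RPM at E14.5, at 3.22, 3.17 and 6.78 RPM at E16.5 and at 1.25, 2.23 and 1.97 RPM at E18.5. The E14.5 libraries stood above all later ones of the ovary, and the log2 change of E18.5 against E14.5 was -3.74 (SE 0.27, adjusted p = 6e-12). Tet3 went the other way, at 6.78, 17.7 and 22.5 RPM at E14.5, at 221, 150 and 167 RPM at E16.5 and at 142, 145 and 179 RPM at E18.5 (log2 change 3.37, SE 0.23, adjusted p = 1.5e-12). Tet1 made up 48.9% of the TET RNA per kilobase at E14.5 and 2.06% at E16.5, and Tet3 made up 17.6% at E14.5 and 75.6% at E16.5. Pluripotent cell markers summed to 106 to 108 RPM at E18.5 and to 336 to 390 RPM at E14.5, with 6 of the 8 tested lower and 1 higher. Of 9 tested granulosa markers 6 were higher and none lower, with sums of 55.9 to 91.3 RPM at E18.5 and 21.5 to 33.8 RPM at E14.5. Of 6 tested stroma markers 5 were higher and none lower, with sums of 30.9 to 69.5 RPM at E18.5 and 6.54 to 10.04 RPM at E14.5. The part of these markers in the fetal differences was not tested.

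**Figure D3:**
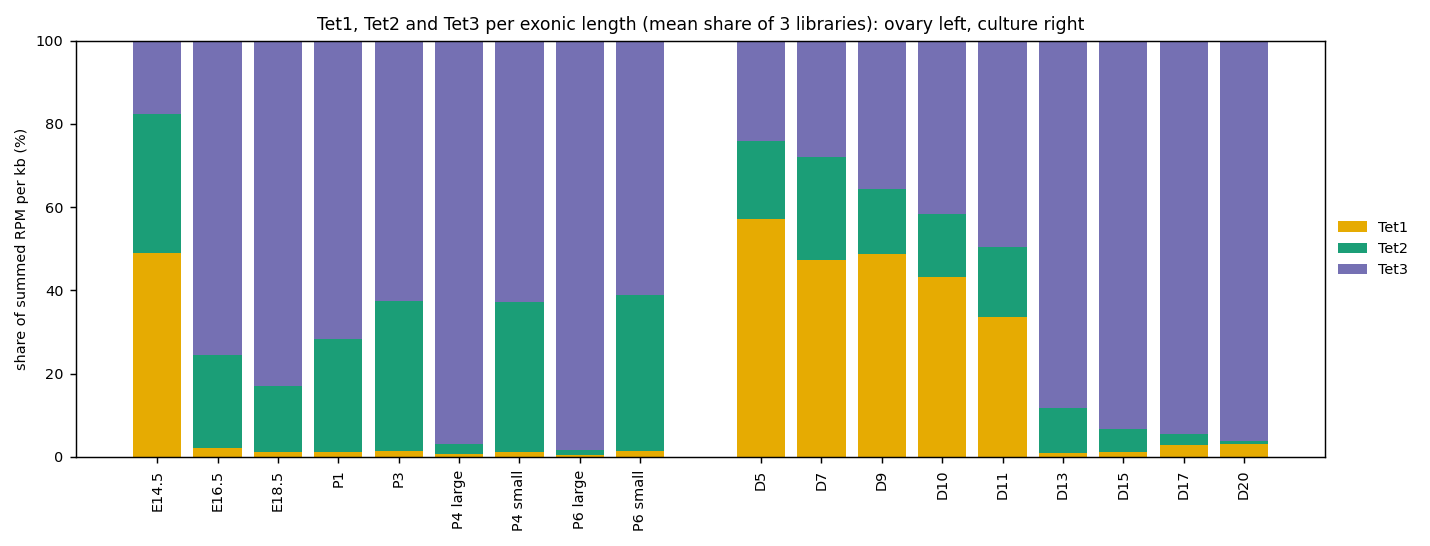
Mean share of Tet1, Tet2 and Tet3 in their summed RPM per kilobase of exon, over 3 libraries a group, for the ovary (left) and the culture course (right). Tet1 holds 48.9% at E14.5 and 2.06% at E16.5 in the ovary, and 33.7% at D11 and 0.906% at D13 in culture, and Tet3 holds 98.5% in large P6 oocytes and 96.2% at D20.

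Dppa3 rose late in fetal life. It had 1136, 1217 and 885 RPM at E18.5, against 91.8, 96.0 and 86.0 RPM at E14.5, a log2 change of 3.54 (SE 0.32, adjusted p = 2.9e-10). At E16.5 it was still at 90.5, 18.9 and 90.5 RPM, with the second library below the others. Uhrf1 had 384, 346 and 378 RPM at E18.5, against 110, 151 and 150 RPM at E14.5 (log2 change 1.44, SE 0.12, adjusted p = 1.4e-10). Dnmt1 had 313, 315 and 351 RPM at E18.5, against 521, 579 and 632 RPM at E14.5 (log2 change -0.82, SE 0.08, adjusted p = 3.7e-09). Uhrf1 and Dnmt1, which act together, thus moved in opposite directions here. Dnmt3b had 23.4, 29.5 and 29.3 RPM at E18.5, against 3.12, 5.96 and 6.36 RPM at E14.5 (log2 change 2.25, SE 0.16, adjusted p = 3e-12). Dnmt3a was higher by 0.99, and Tet2 did not pass (0.14, adjusted p = 0.5).

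Around these changes, S phase genes were lower at E18.5 for 8 of 10 and higher for 1, with Top2a at -3.79. Calls over all 15401 genes numbered 6157 higher and 4625 lower, or 5182 and 5467 when rescaled. Of the 7 maintenance helpers, 5 were lower and 2 higher, with Pclaf, listed as 2810417H13Rik, at -2.73, Hells at -1.97 and Lig1 at -1.62. Of the 11 imprint factors, 4 were higher and 6 lower, or 3 and 7 when rescaled, with Zfp57 at 5.48, the histone demethylase Kdm1b at 3.96 and Setdb1 at -1.51. Of 9 readers 5 were higher and 3 lower, of 16 tested repair genes and TET partners 7 were higher and 4 lower, or 5 and 5 when rescaled, and of 10 tested methyl donor genes 4 were higher and 2 lower. Of 3 tested neighbours of Dppa3, 2 were lower, the glucose transporter Slc2a3 at -4.25 and Nanog at -2.21, and none was higher.

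From E18.5 to P3, 7 of 9 genes were called, where 58.3% of all genes were, 3997 higher and 4977 lower, or 4240 and 4529 when rescaled. Dppa3 (log2 change 1.0), Uhrf1 (0.99), Tet2 (0.59), Dnmt3b (0.53) and Dnmt3a (0.38) were higher at P3, and Tet3 (-0.98) and Dnmt1 (-0.29) were lower. The Dnmt3a call was lost when E18.5 library 1 or 2 or P3 library 2 was left out (adjusted p = 0.16, 0.051 and 0.12). Dnmt3b reached its highest group mean of the series at P1, 43.9 ± 2.48 RPM (SD, n = 3), and Dnmt3a then held its lowest share of the 2 enzymes, 39.8%.

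In culture, D13 was set against D11. Dnmt1, Dnmt3l, Dppa3, Uhrf1 and Dnmt3a were higher at D13, and Tet1 and Tet2 were lower. That makes 7 of 9 genes, where 70.5% of the 16065 genes tested were called. Their median log2 change was -0.50, and the split was 3184 higher and 8142 lower, or 4866 and 6038 when rescaled. The step from D11 to D13 coincided with the change of label from germ cell to oocyte.

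Dnmt1 had 2893, 2990 and 3228 RPM at D13, against 431, 402 and 642 RPM at D11 (log2 change 2.65, SE 0.19, adjusted p = 1.3e-11). From D5 to D11 its group means lay between 366 and 548 RPM. Uhrf1 had 1339, 1518 and 1080.5 RPM at D13, against 272, 319 and 800 RPM at D11 (log2 change 1.66, SE 0.26, adjusted p = 6.1e-06). Dppa3 had 2498, 2958 and 2627 RPM at D13, against 504, 566 and 1369 RPM at D11 (log2 change 1.88, SE 0.28, adjusted p = 2.8e-06). The third D11 library stood nearest to D13 for all 3 genes.

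Dnmt3l had 3.12, 3.28 and 4.72 RPM at D13, against 4 reads over the 3 D11 libraries, a ratio of 50.64 with a 95% counting interval of 19.5 to 187.5. It then had means of 19.5 RPM at D15, 39.0 RPM at D17 and 64.6 RPM at D20, with no overlap between these groups. Dnmt3a had 195, 205 and 182 RPM at D13, against 107, 143 and 185 RPM at D11, with overlap and a log2 change of 0.45 (adjusted p = 0.036). That call was lost when D11 library 1 or 2 or D13 library 1 or 2 was left out (adjusted p = 0.063 to 0.26). Dnmt3b had 33.8, 31.2 and 33.9 RPM at D13, against 46.8, 32.1 and 49.0 RPM at D11, and its log2 change of -0.34 missed the threshold (adjusted p = 0.054), was 0.10 when rescaled and passed at -0.53 without D11 library 2 (adjusted p = 0.0045).

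Tet1 dropped most, to 0.405, 0.682 and 1.505 RPM at D13, against 91.2, 80.5 and 15.4 RPM at D11 (log2 change -4.78, SE 0.47, adjusted p = 3.5e-09). Without the third D11 library, which is low in Tet1, the log2 change was -5.58. Of 8 tested pluripotent cell markers, 5 were lower at D13 and 1 was higher. Sox2 was at 0.191 RPM and Nanog at 0.0455 RPM on average at D13, against 55.1 and 15.3 RPM at D11. Tet2 had 10.2, 10.3 and 12.4 RPM at D13, against 28.5, 38.4 and 29.8 RPM at D11 (log2 change -1.47, SE 0.23, adjusted p = 4.7e-06). Tet3 had 76.7, 103 and 89.6 RPM at D13, against 74.5, 80.7 and 122 RPM at D11, a log2 change of -0.02 that became 0.43 when rescaled, with neither past the threshold. The TET mixture nevertheless turned over: Tet1 made up 0.906% of the TET RNA per kilobase at D13 and 33.7% at D11, with single D11 libraries between 9.87% and 48.9%.

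**Figure D4:**
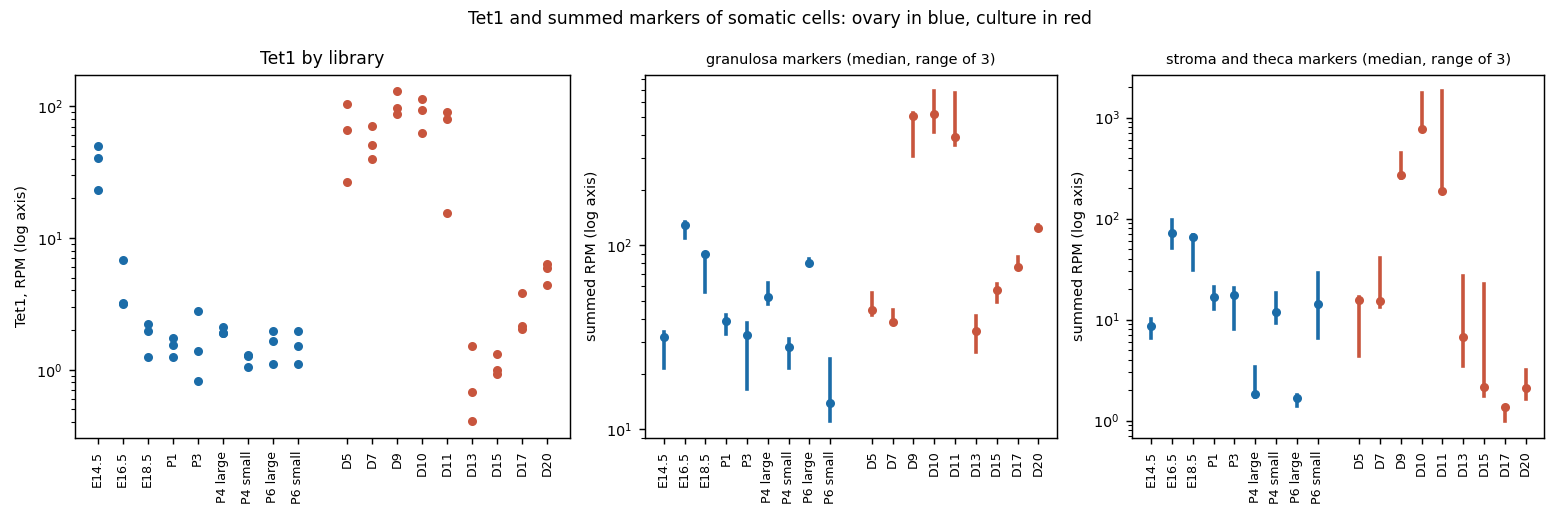
Tet1 RPM in each library (left), and the summed RPM of granulosa markers (middle) and of stroma and theca markers (right) as median and range of 3 libraries, all on log axes. Tet1 is at 26.5 to 104 RPM at D5 and D7, and Tet1 and both marker sums are lower at D13 than at D11.

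Somatic markers moved at the same step. Granulosa markers summed to 26.3 to 41.4 RPM at D13 and to 354 to 674 RPM at D11, and stroma markers to 3.48 to 27.2 RPM at D13 and to 187 to 1833 RPM at D11. Their part in the D13 differences was not tested. At D5 and D7, granulosa markers summed to 37.6 to 55.0 RPM, while Tet1 had 104, 26.5 and 65.7 RPM at D5 and 51.3, 70.8 and 40.0 RPM at D7. Pluripotent cell markers summed to 689 to 736 RPM at D13 and to 391 to 606 RPM at D11, with Pou5f1, which oocytes also express, holding 645 RPM at D13.

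Other genes of the field were mostly lower at D13. So were 8142 of the 16065 genes tested, or 6038 when rescaled. None of 7 maintenance helpers was higher and 6 were lower. Of 9 readers 1 was higher and 6 lower, and of 17 tested repair genes and TET partners 3 were higher and 13 lower, with Gadd45g at -4.17 and Tdg at -3.14. Rescaled, these counts of lower genes were 5, 5 and 10. Of 11 imprint factors 2 were higher and 8 lower, or 3 and 6 when rescaled, with Zfp57 at 3.24 and Nsd1 at -2.11. The 4 neighbours of Dppa3 were all lower while Dppa3 was higher, with Slc2a3 at -4.89 and Nanog at -3.61. S phase genes were lower for 9 of 10, or 5 when rescaled.

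Before that step, from D5 to D11, 6 of the 9 genes were higher, where 31.2% of all genes were higher and 46.3% changed in either direction, with a median log2 change of 0.17. The split of calls was 5019 higher and 2413 lower, or 4210 and 3271 when rescaled. Dppa3 was higher by a log2 change of 1.94, Tet3 by 1.77, Uhrf1 by 1.18, Dnmt3a and Dnmt3b by 1.11 each and Tet2 by 0.65. The Tet2 call was lost when rescaled (0.51, adjusted p = 0.062) and without D11 library 2 (0.52, adjusted p = 0.10), and without D5 library 2 it was 0.36 (adjusted p = 0.18). Uhrf1 and Tet2 lost their calls when D11 and D5 alone were fitted (adjusted p = 0.076 and 0.2). Over the same days stroma markers summed to 187 to 1833 RPM at D11 and to 4.38 to 16.6 RPM at D5, and their part was not tested.

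After the step, from D13 to D20, 8 of 9 genes changed, where 46.1% of all genes did, 3309 higher and 4102 lower, or 4347 and 3317 when rescaled. Dnmt3l was higher at D20 by a log2 change of 3.82 (SE 0.19, adjusted p = 1.7e-13), and Tet1 by 1.84, Tet3 by 1.33, Dnmt1 by 0.74 and Dnmt3a by 0.54. The Dnmt3a call was lost without D13 library 3, D20 library 1 or D20 library 3 (adjusted p = 0.068, 0.067 and 0.069). Tet2 was lower by -2.01 (SE 0.23, adjusted p = 1.1e-07), Dppa3 by -1.18 and Dnmt3b by -0.50. Dnmt3b lost its call when rescaled (-0.32, adjusted p = 0.079). Uhrf1, at 0.44 (adjusted p = 0.18), passed when rescaled (0.64, adjusted p = 0.041). Tet1, still low at 4.41, 6.31 and 5.92 RPM at D20, lost its call with a pseudocount of 5 RPM (adjusted p = 0.10). Tet3 was uneven at D20, with 324, 113 and 316 RPM, so that its second library lay within the D17 range of 81.7 to 126 RPM.

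D20 oocytes were then set against the large and small oocytes of P6. The culture course and the ovary also differ in strain background and in the reporter, which cannot be told apart from the place of growth. Against large P6 oocytes, 3 of 9 genes differed, where 14.2% of the 16452 genes tested did, with a split of 1582 higher and 755 lower, or 1430 and 1232 when rescaled. Against small ones, all 9 differed, where 66.9% of all genes did, with a split of 3857 and 7147, or 5579 and 4955 when rescaled, and a median log2 change of -0.27.

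Dnmt1 had 5586.5, 4794 and 4836 RPM at D20, against 4711, 4724.5 and 4828 RPM in large P6 oocytes, and its log2 change of 0.09 (SE 0.14) did not pass. Dnmt3l had 67.6, 64.4 and 61.8 RPM at D20, against 41.4, 44.2 and 47.8 RPM in large P6 oocytes (log2 change 0.53, SE 0.15, adjusted p = 0.011). Tet1 was higher at D20 by 1.35 (SE 0.40, adjusted p = 0.016), with 4.41 to 6.31 RPM against 1.10 to 1.97 RPM. Tet2 was lower by -0.97 (SE 0.21, adjusted p = 0.00081), with 2.65, 1.36 and 1.99 RPM at D20, against 5.08, 4.79 and 4.54 RPM. Without P6 large library 1, Dnmt3l and Tet1 missed the threshold (adjusted p = 0.065 and 0.087), as did Tet1 without D20 library 2 or 3 (adjusted p = 0.072 and 0.055). edgeR's quasi-likelihood test on the recovered reads gave Dnmt3l an adjusted p of 0.44. The Tet1 call was also lost in limma with a pseudocount of 5 RPM (0.68, adjusted p = 0.18). Tet3 did not pass at -0.88 (SE 0.32, adjusted p = 0.055) but did when rescaled (-0.96, adjusted p = 0.024) and without D20 library 1 (-1.14, adjusted p = 0.024) or 3 (-1.12, adjusted p = 0.03).

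Against small P6 oocytes, D20 was higher for Dnmt3l, Dnmt1, Tet3, Tet1, Uhrf1 and Dnmt3a and lower for Tet2, Dppa3 and Dnmt3b. Dnmt1 was higher by a log2 change of 4.28 (SE 0.14, adjusted p = 1e-27) and Tet2 was lower by -4.06 (SE 0.21, adjusted p = 2.5e-21). Of these, 2 depend on the scaling: Dnmt3b changed by -0.47, or by 0.03 when rescaled, and Dppa3 by -0.72 (adjusted p = 0.042), or by -0.19 when rescaled. The Dppa3 call was also lost without any 1 of the 6 libraries other than D20 library 2 (adjusted p = 0.058 to 0.13). Tet1, low in both groups, lost its call in limma with a pseudocount of 5 RPM (0.69, adjusted p = 0.064). In the related lists, D20 and large P6 oocytes differed in few genes. The calls were all higher at D20: the demethylase Kdm1a at 0.36, Mbd1 at 0.71, Neil1 at 0.77, and Gnmt and Ahcy of the methyl donor cycle at 1.14 and 0.37.

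At D21, WT hypoxia oocytes had higher Tet2 and Dnmt3b than WT normoxia oocytes. These 2 of 9 genes are a share close to the 22.5% of the 14392 genes tested that were called, and with 1 library left out 0 to 5 of the 9 were called. The other comparisons by oxygen or genotype called none, apart from Tet2 in the libraries with no oxygen label. With 2 libraries a group these calls are fragile.

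Tet2 had 24.5 and 20.2 RPM in WT hypoxia, against 7.54 and 4.11 RPM in WT normoxia. Both hypoxia libraries lay above both normoxia ones, with a log2 change of 1.81 (SE 0.26, adjusted p = 0.0063). Dnmt3b had 35.2 and 38.8 RPM in WT hypoxia, against 23.5 and 19.5 RPM in WT normoxia (log2 change 0.76, SE 0.20, adjusted p = 0.024). When either WT hypoxia library was left out, Tet2 had adjusted p-values of 0.096 and 0.05 and Dnmt3b of 0.13 both times. Dnmt3b also lost its call without WT normoxia library 2 (adjusted p = 0.10). Dppa3 averaged 1442 ± 55.1 RPM in WT hypoxia and 2326 ± 846 RPM in WT normoxia (SD, n = 2 each), and its log2 change of -0.64 did not pass in limma (adjusted p = 0.10). It passed in DESeq2 (-0.94, adjusted p = 0.016) and without WT normoxia library 1 (-1.02, adjusted p = 0.0091). The genes tested had a median log2 change of 0.14. The split of all calls was 2295 higher and 942 lower, or 1606 and 1445 when rescaled, and the directions of Tet2 and Dnmt3b held under rescaling, edgeR and DESeq2.

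In Foxo3dNES oocytes, Tet2 had 25.5 and 24.7 RPM in hypoxia, against 17.9 and 13.7 RPM in normoxia. The log2 change of 0.65 (SE 0.26) did not pass (adjusted p = 0.29), and 1.02% of all genes were called. The 2 hypoxia effects differed by -1.17 in Tet2 (SE 0.36, adjusted p = 0.65), so a difference in response was not shown, and none of the 14392 genes passed that test, which is 0.0%. DESeq2 called 2 genes in it, and 869 genes had an unadjusted limma p under 0.05. Without WT normoxia library 1 the Tet2 difference was -1.54 (adjusted p = 0.017) and 2351 genes passed.

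Between genotypes in normoxia, Tet2 had 17.9 and 13.7 RPM in Foxo3dNES, against 7.54 and 4.11 RPM in WT (log2 change 1.34, SE 0.26, adjusted p = 0.11). Dppa3 had 1037 and 1099 RPM in Foxo3dNES normoxia, against 1728 and 2924 RPM in WT normoxia (log2 change -1.07, SE 0.26, adjusted p = 0.11). Neither passed in limma, where 0.00695% of all genes did, and both passed in DESeq2 (adjusted p = 0.00074 and 0.0032) and in limma without WT normoxia library 1 (adjusted p = 0.0015 and 0.0029). In hypoxia, where again 0.00695% passed, Tet2 had 25.5 and 24.7 RPM in Foxo3dNES and 24.5 and 20.2 RPM in WT (log2 change 0.17). These genotype comparisons have no library in common, but each shares its libraries with the comparisons by oxygen above.

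The libraries with no oxygen label had Tet2 at 23.5 and 18.9 RPM in Foxo3dNES, against 9.29 and 8.47 RPM in WT (log2 change 1.16, SE 0.26, adjusted p = 0.037), where 6.85% of all genes were called, 899 higher and 87 lower, or 680 and 208 when rescaled. That call was lost without any 1 of the Foxo3dNES libraries (adjusted p = 0.15 and 0.19) without WT library 1 (adjusted p = 0.092) and in edgeR (adjusted p = 0.06). Dppa3 had 974 and 1047 RPM in Foxo3dNES, against 2336 and 1486 RPM in WT (log2 change -0.88, adjusted p = 0.065), and it passed in DESeq2 (-1.10, adjusted p = 0.014) and without WT library 2 (-1.21, adjusted p = 0.019). Granulosa markers summed to 473 and 720 RPM in these Foxo3dNES libraries, against 275 and 257 RPM in the WT ones, and stroma markers to 31.5 and 50.7 RPM, against 25.6 and 18.2 RPM. Their part in the Tet2 call was not tested.

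**Figure D5:**
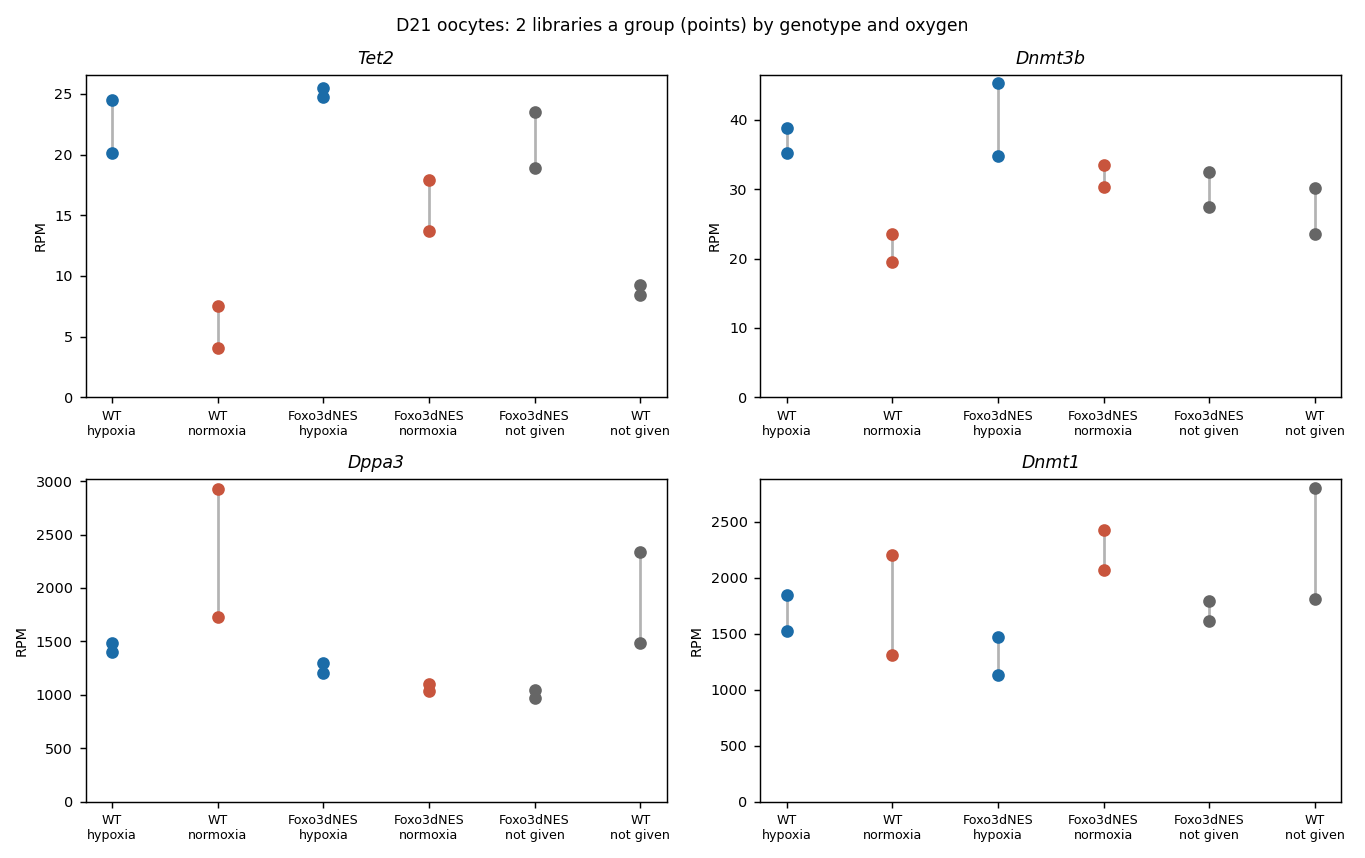
RPM of Tet2, Dnmt3b, Dppa3 and Dnmt1 in each of the 12 D21 libraries (points), with a line joining the 2 libraries of a group, by genotype and oxygen. Tet2 is at 20.2 RPM or above in both hypoxia groups and at 17.9 RPM or below in both normoxia groups, while the 2 WT normoxia libraries lie far apart in Dppa3 and Dnmt1.

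Dnmt1 was not called in any D21 comparison of the main limma fits. It had 1523 and 1847 RPM in WT hypoxia and 2200 and 1314 RPM in WT normoxia, and 1475 and 1131 RPM in Foxo3dNES hypoxia and 2065 and 2422.5 RPM in Foxo3dNES normoxia. The Foxo3dNES groups did not overlap, yet the log2 change of -0.79 (SE 0.28) missed the threshold in limma (adjusted p = 0.24). DESeq2 called 1 of the 9 genes lower in Foxo3dNES hypoxia against normoxia, a gene not identified here. Dnmt3l ranged from 6.83 to 35.3 RPM over the 12 libraries, Uhrf1 from 875 to 1419 RPM, Tet3 from 38.7 to 141 RPM and Tet1 from 0.595 to 5.62 RPM. Dnmt3a ranged from 146 to 244 RPM. Per kilobase, Tet2 made up 18.7% of the TET RNA in WT hypoxia and 8.44% in WT normoxia, and 23.2% in Foxo3dNES hypoxia and 15.02% in Foxo3dNES normoxia.

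Granulosa markers moved with oxygen in both genotypes. They summed to 33.0 and 42.1 RPM in WT hypoxia, against 300 and 134 RPM in WT normoxia, and to 48.6 and 29.8 RPM in Foxo3dNES hypoxia, against 229 and 168 RPM in Foxo3dNES normoxia. Oocyte markers were at 9242 and 9819 RPM in WT hypoxia, against 14380 and 18777 RPM in WT normoxia. The second WT normoxia library also held 89.7 RPM of blood markers, against 1.03 to 5.55 RPM in the other D21 libraries. The part of these markers in the Tet2 and Dnmt3b differences was not tested. In WT hypoxia, 2295 of all 14392 genes were higher and 942 lower, or 1606 and 1445 when rescaled. Of the related lists, 3 of 9 readers were higher in WT hypoxia with Zbtb38 at 1.5. Of 11 imprint factors 4 were higher and 1 lower, with Nsd1 at 1.0, Setd2 at 0.95 and Zfp57 at -0.93. Of 7 maintenance helpers 3 were higher and 1 lower, or 1 and 1 when rescaled, and of 17 tested repair genes and TET partners 6 were higher and 4 lower, or 3 and 5 when rescaled. Of 10 S phase genes 1 was higher and 1 lower. Of the 10 methyl donor genes tested none passed in limma, and 1 was lower when rescaled.

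Over all 24 groups, the order of each gene's level was as follows. Dnmt1 ran 20.47-fold between its lowest mean at E16.5 and its highest at D20, Uhrf1 15.38-fold between E14.5 and large P6 oocytes, and Dppa3 40.43-fold between E16.5 and D13. Dnmt3a spanned 5.552-fold between D7 and D20, the narrowest range of the 9, and Dnmt3b 8.536-fold between E14.5 and P1. Tet1 spanned 121.5-fold between D13 and D9, Tet2 26.23-fold between D20 and E16.5, and Tet3 26.85-fold between E14.5 and large P6 oocytes. Dnmt3l was highest at D20 and had no read at E16.5, E18.5 or D10. Neighbours in these orders mostly overlapped: of 23 neighbouring pairs, between 17 (Dnmt1) and 21 (Dnmt3a, Dnmt3b, Tet1) overlapped in their library values.

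Likeness was measured as Pearson's r of group means of log2(RPM + 1) over the 24 groups, which share steps of development and so carry no p. Among the members, Dnmt1 and Dnmt3l were most alike (r = 0.95), Dnmt1 and Tet2 ran most against each other (r = -0.91), and Dnmt3a went with Uhrf1 (r = 0.91). Among 10452 other genes, Dnmt1 was most like Fgf8 (r = 0.982), Dnmt3l like Obox5 (r = 0.996) and Sebox, Uhrf1 like Tyw1 (r = 0.988) and Dppa3 like Tmem14c (r = 0.978). Dnmt3a was most like Tmem200b (r = 0.958) and Dnmt3b like Tomm40 (r = 0.929). Tet1 was most like Sox2 (r = 0.989) and Prdm14, both of them genes of pluripotent and early germ cells, Tet2 like Pja2 (r = 0.982) and Tet3 like Rnf139 (r = 0.905). Of the 3 most alike genes of each member, between 1 and 3 were the same when the 6 D21 groups were left out.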

How the data were processed

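Poly(A) RNA of 66 libraries was sequenced from directional libraries amplified with 12 PCR cycles, per the labels' protocols. The submitters' processing notes name build mm10 and, with no role or order, featureCounts 1.5.1, R 3.4.4, Bowtie2 2.0.13 and TopHat2. The authors deposited RPM values, which sum to 1000000 per library. Every RPM value was a whole number of reads to within 0.01, so read counts were recovered from the deposited values. The main test was limma 3.58.1 (trend, two-sided, R 4.3.3) on log2(RPM + 1), with genes at a mean of at least 1 RPM in at least 1 group and Benjamini-Hochberg adjustment over all genes tested. Ovary, culture course, both together and D21 were each fitted with all their groups. Pseudocounts of 0.1 and 5 RPM, no filter, median-of-ratios rescaling, edgeR 4.0.16 and DESeq2 1.42.0 on recovered counts, the replicate number as a block, fits of the compared groups alone and leaving out each library were tried as alternatives. The scripts were tested on simulated data. Libraries of a group differed by more than sampling noise (chi-square per gene of 3.425 to 229.2). The highest values were those of D5 library 2 against libraries 1 and 3, 229.2 and 178.4. D11 library 3 followed with 114.9 and 105.7 against libraries 1 and 2, and then the WT normoxia pair with 95.43. Levels of different genes were compared as RPM per kilobase of GENCODE vM21 exons. The members, the related lists and the motifs were chosen with earlier results of these data known. From each list, up to 3 called genes with the largest change were named, apart from 1 gene that is not reported here, and the most alike genes were sought among those with a group mean of at least 20 RPM. Pluripotency, germ cell and somatic markers are named beside results of the same comparisons.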

Additional observations from a re-analysis of the deposited data

Results flagged for a closer look

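In 2 of the 9 genes the difference between large and small oocytes was not the same at P6 and at P4, by the interaction term of the limma fit with Benjamini-Hochberg adjustment. For Dnmt3l the large-small log2 difference was larger at P6 by 1.10 (SE 0.19, adjusted p = 0.00098), being 5.45 at P6 and 4.35 at P4, and in all 3 large P6 libraries (41.4 to 47.8 RPM) the level was above all 3 large P4 libraries (18.01 to 22.9 RPM). For Tet2 it was more negative at P6 by -1.0 (SE 0.26, adjusted p = 0.016), being -3.09 at P6 and -2.09 at P4, with all 3 large P6 libraries (4.54 to 5.08 RPM) under the large P4 libraries (7.38 to 10.7 RPM). In this test 8.52% of the 15401 genes were called, 406 higher and 906 lower, or 804 and 488 when rescaled. Dnmt3l has 2 reads in the small P6 libraries and 4 in the small P4 libraries, and its call was lost with a pseudocount of 0.1 RPM (1.23, adjusted p = 0.19), in edgeR (adjusted p = 0.39) and in DESeq2 (adjusted p = 0.33). The Tet2 call was lost without the first large P4 library (-0.90, adjusted p = 0.063).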

How the results depend on the processing

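The 84 results for single genes counted here leave out some of the genes in some comparisons. Of these 84, 51 kept direction and call in every alternative. Direction turned in these: Dppa3 in large against small P6 oocytes (0.16 rescaled, 0.11 in edgeR, 0.18 in DESeq2), Dnmt3b at P4 (0.09, 0.03 and 0.09 in the same order), Dnmt3b at D13 against D11 (0.10, 0.13 and 0.08), Tet3 at D13 against D11 (0.43, 0.46 and 0.41, and -0.15 to 0.20 with 1 library left out, among them 0.09 without D13 replicate 1), and Dnmt3b at D20 against small P6 oocytes (0.03 rescaled and in DESeq2). The cause was not tested. With only the compared groups fitted, counts of calls over all genes were 4305 for large P6 against P4 oocytes, 2519 for the P6 and P4 difference, 2625 for D11 against D5, 3816 for D20 against large P6 oocytes, 10 for WT hypoxia against normoxia, 3854 for Foxo3dNES hypoxia against normoxia, 4 for Foxo3dNES against WT in hypoxia, and 0 for Foxo3dNES against WT in normoxia and with no oxygen label. In Foxo3dNES hypoxia against normoxia, 147 genes became 9 with a pseudocount of 5, 0 with no filter, 94 with the replicate block, 365 in edgeR and 1044 in DESeq2. For Foxo3dNES against WT in normoxia, 1 became 2 rescaled and in edgeR and 1607 in DESeq2, and in hypoxia 2 in DESeq2. With no oxygen label, 986 became 292 with a pseudocount of 0.1, 479 with no filter, 1 with the replicate block and in edgeR, and 1573 in DESeq2. For the difference of hypoxia effects DESeq2 gave 2. Of the 9 genes, the number called went for large P6 against P4 oocytes to 1 with a pseudocount of 0.1 and 4 for the groups alone, for the P6 and P4 difference to 1 with that pseudocount, in edgeR and in DESeq2, for WT hypoxia to 0 for the groups alone, for Foxo3dNES hypoxia to 1 in DESeq2 and 3 for the groups alone, for Foxo3dNES in normoxia to 2 in DESeq2, and with no oxygen label to 2 in DESeq2 and 0 with a pseudocount of 0.1, no filter, the block, edgeR or the groups alone. Leaving out 1 library gave 1459 to 3136 genes for large P6 against P4 oocytes, 560 to 1864 for the P6 and P4 difference, 1422 to 2062 for D20 against large P6 oocytes, 16 to 5962 for WT hypoxia, 0 to 0 for Foxo3dNES hypoxia, 1 to 5159 for Foxo3dNES in normoxia, 2 to 3022 with no oxygen label and 0 to 2351 for the difference of hypoxia effects. Of the 9 genes it gave 1 to 2 for the P6 and P4 difference, 1 to 4 for D20 against large P6 oocytes, 0 to 5 for WT hypoxia, 0 to 4 for Foxo3dNES in normoxia, 0 to 3 with no oxygen label and 0 to 2 for the difference of hypoxia effects. The highest D21 counts came without WT normoxia replicate 1, and with no oxygen label without WT replicate 2. A lone library left in a group was assumed to vary like the other groups. Same-numbered replicates correlated at -0.28 to 0.21 and the labels do not say that a number pairs them, so the replicate block stayed an alternative. It gave 11312 genes for P6 and 11374 for D13 against D11, called Tet3 at D20 against large P6 oocytes (adjusted p = 0.043), lost Tet2 with no oxygen label (adjusted p = 0.051) and changed no other call of the 9 genes. In D20 against large P6 oocytes and D13 against D11 all 3 libraries correlated best with their own number. With crossed numbers, a check chosen after seeing the data, the block gave 2479 genes for WT hypoxia, 131 for Foxo3dNES hypoxia and 1 for Foxo3dNES in hypoxia. Dnmt3l in small oocytes rests on 2 reads over the 3 libraries at P6 and 4 at P4.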
